A study of Mus musculus with 53 samples.

Results

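Trp63, the gene of the transcription factor p63, was followed together with 8 other regulators of epithelial stratification in developing mouse epithelia. The others were Ovol1, Ovol2, Zfp750, Sfn, Bnc1, Tfap2c, Esrp1 and Hes1. The 9 genes were listed by symbol, with earlier results of these data known. All 9 were found in both array tables, among 19938 named genes on the Gene ST arrays and 18194 on the 3' arrays. Where several probe sets carried one gene, the brightest one over all arrays of its table was used.

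The study profiled total RNA of whole tissues, homogenised and hybridised to Affymetrix arrays, in 18 groups on 53 arrays. The Gene ST table held 27 arrays of whole cornea at E14.5, E15.5, E17.5, P3, P7, P14 and P28, and of E18.5 trachea and E18.5 lung, with 3 arrays in every group and all from wildtype CB6 mice. The 3' table held 26 arrays: dorsal skin and bladder, both sampled at E14.5, at E16.5 and at E18.5, with E18.5 esophagus, stomach and proximal small intestine. Groups on the 3' arrays had 3 arrays each, except E14.5 bladder with 2, and the mice were wildtype CB6 except for the E18.5 bladder, which came from Get1 +/- mice. Get1 is another name of Grhl3, a grainyhead-like factor of epithelial differentiation, so bladder genotype and age cannot be told apart at E18.5. In comparisons of E18.5 bladder with other organs, tissue and genotype cannot be told apart. In whole tissue, fewer epithelial cells and less RNA per epithelial cell cannot be told apart. Nothing in the labels tells whether each array stands for its own animal, so the p-values below measure only the spread between arrays, which may be technical.

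p63 is a member of the p53 family that basal cells of stratified epithelia need for their commitment and renewal, and mice without it lack stratified skin. Its targets include adhesion and basement-membrane genes, and the zinc-finger factor ZNF750, the human counterpart of Zfp750, acts below it in terminal differentiation of human keratinocytes. Ovol1 and Ovol2 are zinc-finger repressors that restrain basal proliferation and mesenchymal genes. Sfn encodes 14-3-3 sigma, a checkpoint protein of stratified epithelia, and Bnc1 the basal-cell zinc-finger protein basonuclin. Tfap2c encodes the AP-2 gamma factor that acts early in surface ectoderm, Esrp1 an epithelium-specific splicing regulator, and Hes1 a repressor switched on by Notch signalling.

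RefSeq promoters were at hand for 3 of the 9 genes, in mouse build GRCm38.p6. Those of Sfn and Bnc1 are shown because both genes were called higher in cornea at P28 than at E15.5 and in E18.5 skin than in small intestine. The 250 bases before each start are given on the gene's own strand, 5′ to 3′. Capitals mark matches to the motifs named after them.

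Sfn, chr4:133602169-133602418, minus strand: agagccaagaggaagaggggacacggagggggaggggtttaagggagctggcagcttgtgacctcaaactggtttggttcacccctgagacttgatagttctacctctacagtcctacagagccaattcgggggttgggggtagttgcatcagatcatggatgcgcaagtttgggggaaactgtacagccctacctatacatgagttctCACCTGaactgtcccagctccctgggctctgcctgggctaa

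Bnc1, chr7:81992300-81992549, minus strand: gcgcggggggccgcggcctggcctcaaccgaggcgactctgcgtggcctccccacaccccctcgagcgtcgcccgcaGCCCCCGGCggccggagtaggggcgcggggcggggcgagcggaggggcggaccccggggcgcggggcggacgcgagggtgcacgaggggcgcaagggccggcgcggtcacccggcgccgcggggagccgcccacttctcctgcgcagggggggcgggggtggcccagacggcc

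In Sfn the capitals mark the E-box CACCTG, a sequence bound by ZEB and SNAI repressors, whose first base lies 41 bases before the start. In Bnc1 they mark the AP-2 palindrome GCCNNNGGC, 173 bases before the start. Both strands were searched, and 17.2% of the 32851 RefSeq promoter windows of this length hold the E-box and 13.7% the AP-2 palindrome. The other motifs searched were the p53-family half-site (7.13% of windows), the Ovol site CCGTTA (2.18%) and the grainyhead-like site AACCGGTT (0.116%). None of these 3 occurs in the windows of Sfn, Bnc1 or Ovol2, and the Ovol2 window, on chromosome 2, holds none of the 5 motifs. The matches are a description of letters and say nothing of binding in these tissues.

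Values are given as levels, log2(intensity + 16) after quantile normalization within a table, so that a level of 4 stands for an intensity listed at 0. A gene was called where limma's adjusted p was under 0.05 and the difference at least 2-fold, adjusted by Benjamini-Hochberg over all genes of the table. Differences are log2 differences of group means. The tables were made on different arrays and were never compared with each other.

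Several arrays went against their labels or stood apart, and the results that rest on them are given with this in view. The 3 lung-labelled arrays held thymus signal: 11 measured thymocyte genes summed to intensities of 129000 to 138000 on the lung-labelled arrays, and to 910 to 961 on trachea arrays. Thymic epithelium genes summed to 20800 to 24100 on the lung-labelled arrays and 545 to 662 on trachea arrays. The 10 lung markers summed to 1850 to 2030 on the lung-labelled arrays, inside the 1590 to 2370 seen in cornea, and to 2340 to 2990 on trachea arrays. Small intestine replicate 4 carried 8 intestinal markers at a summed intensity of 11200, against 69400 and 69900 on the 2 other intestinal arrays. On replicate 4 the esophagus list summed to 45200, against 29.7 and 341, and the stomach list to 30700, against 1100 and 2140. E14.5 cornea replicate 3 had a pan-epithelial sum of 2890, against 6490 and 7290 on the other 2, while its lens sum of 86000 lay between 6840 and 91200. Skin E14.5 replicates 1 and 2 each carried intestinal markers at 12200, against 73.1 on replicate 3, and their titles share a number and one ends in re, so that they may be repeats of 1 sample. Lung markers summed to 29300 and 25500 on E18.5 skin replicates 2 and 3, against 196 on replicate 1.

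On the 3' arrays, 9 of 26 formed a set of their own: all E16.5 and E18.5 skin arrays and all small intestine arrays. Their beta-actin control read −0.46 to −0.05 as 5′ minus 3′ probe set on the log2 scale, against −3.52 to −1.8 on the other 17 arrays. The 18S ribosomal RNA control was at a level of 4.52 to 5.71 on the 9 arrays and 10.02 to 12.46 on the 17. The first principal component, with 62.5% of the variance, separated the sets, and the highest correlation between arrays of different sets was 0.767, below the lowest within either (0.821 in the 9 and 0.89 in the 17). The labels give one labelling protocol for all arrays. Tissue or age and array set cannot be told apart in any comparison across the sets, so comparisons within a set are described first.

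**Figure D1:**
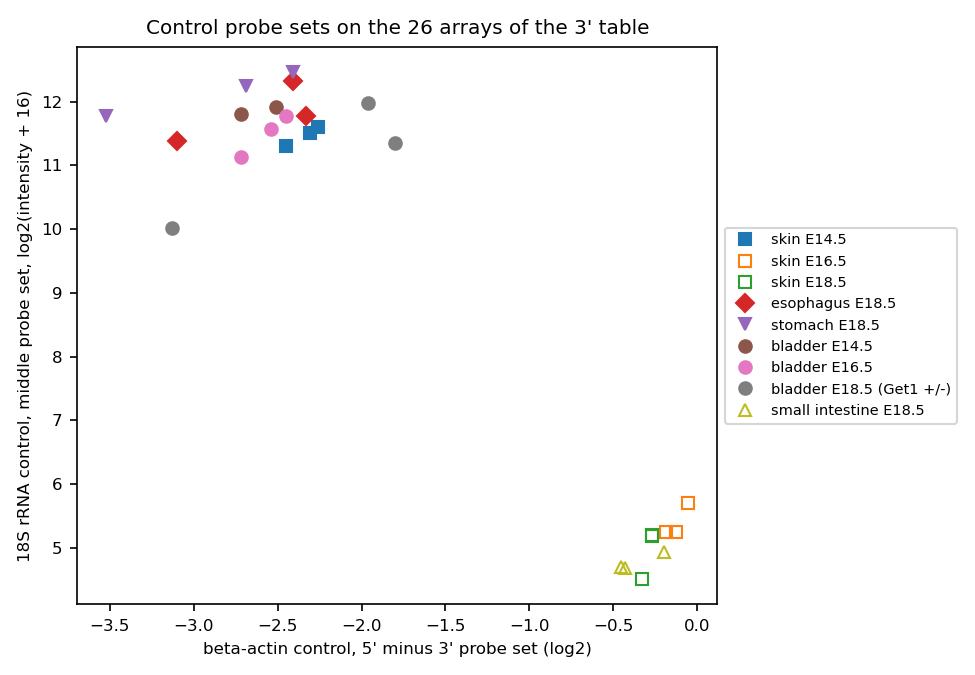
Each point is 1 array of the 3' table, placed by the 5′ minus 3′ difference of its beta-actin control (log2) and by the level of its 18S rRNA control. The 9 open symbols (E16.5 and E18.5 skin, small intestine) sit at −0.46 to −0.05 and 4.52 to 5.71, apart from the 17 filled ones at −3.52 to −1.8 and 10.02 to 12.46.

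In cornea, 7 of the 9 genes changed over the 7 ages, against 21.7% of all genes called, and all 9 had their highest mean at P28. Trp63 read 10.29, 10.59 and 7.85 at E14.5, 10.32, 11.18 and 11.09 at E15.5, and 11.43, 11.12 and 11.69 at P28. Replicate 3 at E14.5 was the 1 cornea array with a level below 10. The 15 arrays from E15.5 to P14 lay between 10.07 and 11.25, and neighbouring ages overlapped throughout. The difference between the highest and the lowest age mean was 1.84 (F test over ages in limma, adjusted p = 0.0199), and 1.01 (adjusted p = 0.0064) without E14.5 replicate 3.

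Zfp750 moved most among the 9 in cornea. It read 7.83, 8.95 and 7.14 at E14.5, 10.04, 10.9 and 10.84 at E15.5, and 11.34, 11.33 and 11.31 at P28, 3.36 above E14.5 (10.2-fold, adjusted p = 1.23e-07). The E14.5 arrays did not overlap those of any later age, and all of the P28 arrays lay above all of the P14 arrays (11.05 to 11.26).

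Ovol1, a repressor of basal proliferation, had its highest levels at P28. It read 6.99, 7.03 and 6.8 at E14.5, 7.72, 7.57 and 8.15 at E15.5, 8.3, 7.82 and 7.96 at P14, and 9.22, 8.99 and 8.95 at P28. All of the P28 arrays were above all others, and the range over ages was 2.11 (4.32-fold, adjusted p = 4.55e-09). Ovol2 stayed within 0.65 over ages (adjusted p = 0.00961, below 2-fold), with 7.83, 7.87 and 7.94 at P28 against 7.28, 7.49 and 6.92 at E14.5. The P28 arrays of Ovol2 nevertheless lay above every other cornea array, the highest of which read 7.6.

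Bnc1 followed another course, low until P3 and high at P28. It read 8.07, 8.27 and 7.34 at E14.5, 7.08, 7.81 and 7.28 at E17.5, 8.33, 8.91 and 8.63 at P7, and 10.26, 9.67 and 10.99 at P28. The P28 arrays were above all others, and P28 was 2.92 above E17.5, the lowest age (7.56-fold, adjusted p = 3.55e-07). Sfn read 9.27, 10.64 and 8.85 at E14.5 and 11.88, 11.73 and 11.69 at P28, a difference of 2.18 (adjusted p = 9.51e-05). Its second Gene ST probe set ran the same way, with 10.11, 9.97 and 10.14 at P28 against 6.11, 7.5 and 5.95 at E14.5.

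Esrp1 read 12.04, 11.74 and 12.09 at P28 against 9.63, 9.76 and 7.45 at E14.5, a difference of 3.01 (8.06-fold, adjusted p = 3e-05). The groups did not overlap, and P28 also stood above P14 (10.86 to 11.47). Tfap2c differed by 0.95 between its highest and lowest age (adjusted p = 3.55e-05), just under the 2-fold limit, with 9.67, 9.57 and 9.92 at P28 against 8.86, 8.87 and 8.59 at E14.5. Hes1 read 9.51, 9.4 and 9.63 at P28 against 7.72, 8.11 and 9.04 at E14.5 (1.22, adjusted p = 0.00842). The groups did not overlap, though E14.5 replicate 3, lowest for Trp63 and Esrp1, was the highest E14.5 array for Hes1.

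**Figure D2:**
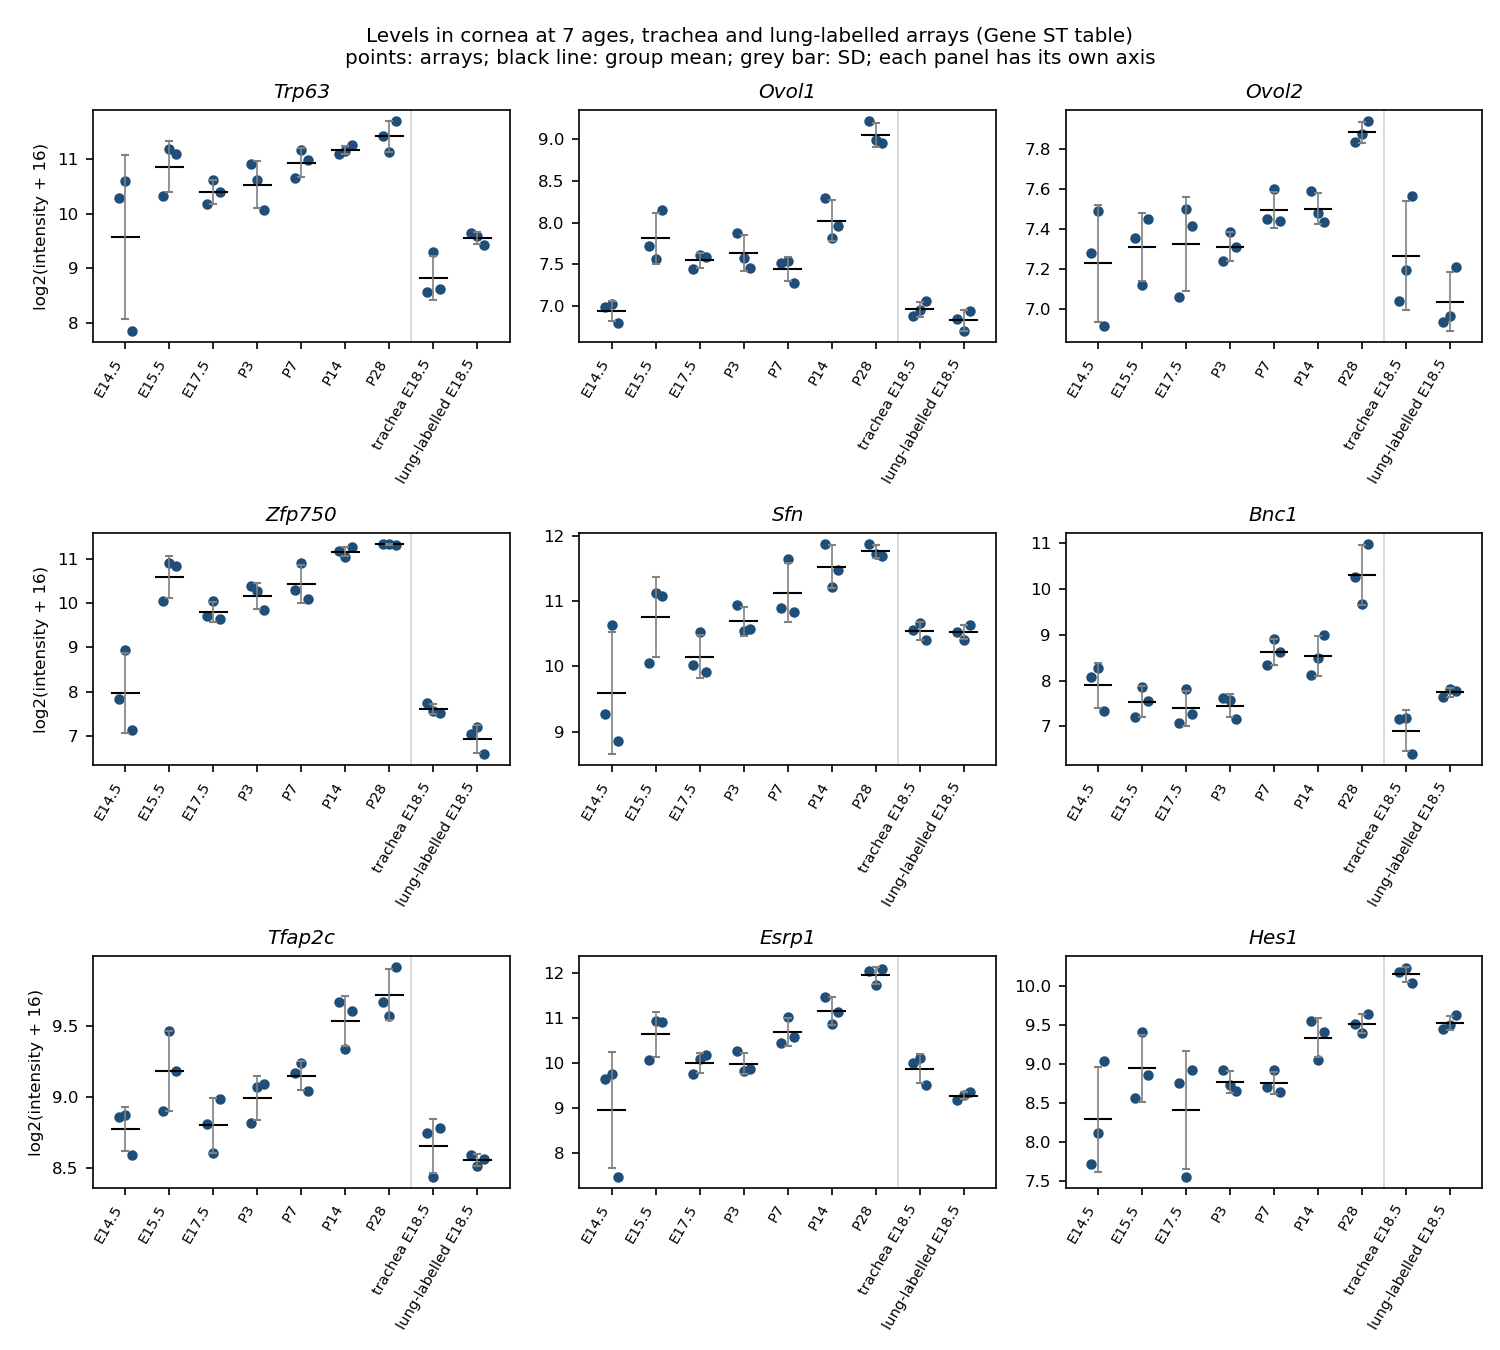
Levels of the 9 genes on the 27 Gene ST arrays, log2(intensity + 16), with ages from E14.5 to P28 and then trachea and lung-labelled arrays. Points are arrays, black lines means and grey bars SD (n = 3), and in cornea every gene is highest at P28, while 1 E14.5 array is low for Trp63 (7.85) and Esrp1 (7.45).

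Over the first day, E15.5 against E14.5, 4 of the 9 were called, all higher, against 7.56% of all genes. Zfp750 rose by 2.62 (SE 0.31, 6.14-fold, adjusted p = 1.25e-06), Esrp1 by 1.69 (SE 0.38, adjusted p = 0.00203), Trp63 by 1.29 (SE 0.43, adjusted p = 0.0311) and Sfn by 1.16 (SE 0.33, adjusted p = 0.0113). Ovol1 differed by 0.87 (adjusted p = 0.000102) and Tfap2c by 0.41 (adjusted p = 0.0384), both below 2-fold. Hes1 (0.65, adjusted p = 0.104), Ovol2 (0.08, adjusted p = 0.734) and Bnc1 (−0.35, adjusted p = 0.43) did not pass the test. The pan-epithelial sum was 10200 to 14400 at E15.5 and 2890 to 7290 at E14.5, and the lens sum 915 to 1530 at E15.5 and 6840 to 91200 at E14.5; their part in these differences was not tested. Without E14.5 replicate 3, Zfp750 kept its call (2.2), while Trp63 (0.42, adjusted p = 0.271), Sfn (0.8, adjusted p = 0.0907) and Esrp1 (0.94, adjusted p = 0.00724, below 2-fold) did not. Leaving out E15.5 replicate 2 or replicate 3 ended the calls of Trp63 (1.13 and 1.17) and Sfn (0.98 and 1), and leaving out E14.5 replicate 1 that of Sfn (1.01, adjusted p = 0.0523). With only the arrays of these ages in the fit, Zfp750 alone was called, with adjusted p = 0.246 for Trp63, 0.156 for Sfn and 0.109 for Esrp1.

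From E15.5 to P28 a different mix of genes was called. Of the 9, 4 rose, against 10.3% of all genes called: Bnc1 by 2.77 (SE 0.31, 6.81-fold, adjusted p = 2.76e-07), Esrp1 by 1.32 (SE 0.38, adjusted p = 0.0112), Ovol1 by 1.24 (SE 0.15, adjusted p = 7.43e-07) and Sfn by 1.02 (SE 0.33, adjusted p = 0.0229). Trp63 (0.55, SE 0.43, adjusted p = 0.396) and Zfp750 (0.74, SE 0.31, adjusted p = 0.0796) did not pass, Ovol2 (0.57, adjusted p = 0.00433) and Tfap2c (0.54, adjusted p = 0.0065) passed the test below 2-fold, and Hes1 differed by 0.57 (adjusted p = 0.161). This comparison and the one before share the E15.5 arrays. Without E15.5 replicate 1, Sfn (0.67, adjusted p = 0.176) and Esrp1 (1.03, adjusted p = 0.0784) lost their calls, and without P28 replicate 1 or replicate 2 Sfn did (0.96 and 1.04, adjusted p = 0.0711 and 0.0524). On the mean of its probe sets Sfn was at 0.96, below 2-fold.

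A list of genes known as p63 targets was set beside the first step. It holds 24 genes of adhesion, basement membrane and epidermal commitment, of which 21 were measured. At E15.5 against E14.5, 12 were called higher and 0 lower, with a median of 1.31 beside −0.02 over all genes, of which 7.56% were called. The stratified basal marker sum was 22300 to 29800 at E15.5 and 2390 to 6330 at E14.5. Krt5, Krt14, Itgb4, Col17a1 and Lamb3 are both basal markers and listed targets, so this sum is not separate from the list. The pan-epithelial sum moved the same way, as given above. The part of either sum in these counts was not tested. The targets called higher were led by the desmosomal cadherin Dsc3 (10.81 ± 0.58 against 6.98 ± 1.35, SD, n = 3 each), the ubiquitin ligase Trim29 (3.09) and the basal keratin Krt5 (2.78). At P28 against E15.5, 4 were called higher and 3 lower with a median of 0.5 beside −0.05 over all genes, of which 10.3% were called. The laminin receptor subunit Itga6 was higher (2.21) and the tight-junction claudin Cldn1 lower (9.22 ± 0.37 against 10.97 ± 0.27).

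Of other regulators of stratification, 7 of 15 measured genes were higher and 1 lower at E15.5 against E14.5 (median 0.92), where 7.56% of all genes were called. The ETS factor Ehf was at 10.9 ± 0.42 against 5.82 ± 0.14, and the Krüppel-like factors Klf5 (2.54) and Klf4 (2.48) rose as well. At P28 against E15.5, where 10.3% of all genes were called, 6 of the 15 rose and 0 fell (median 0.79), led by Prdm1 (2.84), Hopx (2.78) and Elf3 (2.45). The mesenchymal list had 3 of 10 higher and 1 lower at E15.5 against E14.5, with a median of 0.48: Twist2 (1.89) and the matrix gene Fn1 (1.72) rose, and the cadherin Cdh2 (−2.49) fell. The same list had 0 of 10 higher and 8 lower at P28 against E15.5 with a median of −2.15. Twist2 fell by 3.5, Zeb2 by 3 and Vim by 2.9. The pan-epithelial sum in the same arrays was 19000 to 22200 at P28 and 10200 to 14400 at E15.5; its part in these changes was not tested.

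At E15.5 against E14.5, where 7.56% of all genes were called, 1 of 15 Notch genes rose, the receptor Notch2 (1.39), and 1 fell, the effector Hey1 (−1.28). At P28 against E15.5, where 10.3% of all genes were called, the ligand Jag1 rose (1.26) and 0 fell. Of 18 measured relatives of the 9 genes, Esrp2 (1.36) and Tfap2b (1.26) rose and Hey1, which is on both lists, fell at E15.5 against E14.5, and Tfap2b (−2.47) and Bnc2 (−2.21), the paralogue of Bnc1, fell at P28 against E15.5.

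Trachea was set against the lung-labelled arrays at E18.5, and limma called 0 of the 9 genes, against 16.1% of all genes; at an unadjusted p under 0.05, 3 of the 9 differed, each below 2-fold. Trp63 read 8.58, 9.3 and 8.63 on trachea arrays and 9.65, 9.6 and 9.42 on the lung-labelled arrays, without overlap (−0.72, SE 0.43, adjusted p = 0.19). Bnc1 read 7.15, 7.19 and 6.39 on trachea arrays and 7.64, 7.82 and 7.77 on the lung-labelled arrays (−0.83, SE 0.31, adjusted p = 0.0309, below 2-fold). Hes1 had its highest levels of the whole table on trachea arrays, at 10.17, 10.23 and 10.04, against 9.45, 9.5 and 9.62 on the lung-labelled arrays (0.62, adjusted p = 0.0911). The lung-labelled arrays hold thymus markers, as given above, so this comparison cannot be read as trachea against lung.

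On the 3' arrays, the 17 arrays of the larger set allow skin to be set against bladder at E14.5. Of the 9 genes, 7 were higher in skin, against 14.1% of all genes called in either direction. Trp63 read 11.28, 11.31 and 11.62 in skin and 9.17 and 8.39 in bladder (2.62, SE 0.77, 6.15-fold, adjusted p = 0.016). Zfp750 read 7.54, 7.6 and 7.81 in skin and 5 and 4.17 in bladder (3.07, SE 0.68, adjusted p = 0.00193). Its bladder arrays lay near the level of 4 that stands for 0, so the size of this difference depends on the pseudocount and no fold is given. The tissues did not overlap for either gene. Ovol1 was at 8.89, 8.82 and 8.9 in skin and 6.27 and 6.25 in bladder (2.61, adjusted p = 1.19e-07). Sfn was at 8.38, 8.36 and 8.42 in skin and 5.37 and 5.42 in bladder (3, adjusted p = 0.000851). Skin arrays again lay above all bladder arrays for both. Tfap2c (2.62, adjusted p = 0.000275), Esrp1 (2.46, adjusted p = 9.01e-05) and Bnc1 (1.27, adjusted p = 0.0102) were called too. Hes1 (0.49, adjusted p = 0.119) was not, and Ovol2 was listed at 0 on both bladder arrays and read 4.18, 5.18 and 4.56 in skin. Intestinal markers differed among the skin arrays as given above, and their part in these differences was not tested. Without bladder replicate 2, Trp63 (2.23, adjusted p = 0.147) and Bnc1 (0.54, adjusted p = 0.367) lost their calls. With a pseudocount of 1, Trp63 (2.66, adjusted p = 0.105) and Tfap2c (2.67, adjusted p = 0.0542) did, and on the mean of all its probe sets Trp63 was at 1.06 (adjusted p = 0.0939).

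At E18.5, esophagus, whose lining is a stratified squamous epithelium, was set against Get1 +/- bladder, whose lining is urothelium, and 4 of the 9 were called, all higher, against 11.2% of all genes. Trp63 read 11.71, 11.85 and 11.99 in esophagus and 9.51, 9.8 and 8.22 in bladder (2.68, SE 0.69, 6.4-fold, adjusted p = 0.0063), without overlap. Esrp1 was at 11.68, 11.93 and 12.36 in esophagus and 10.41, 10.5 and 10.82 in bladder (1.41, adjusted p = 0.00519). Ovol1 (1.24, adjusted p = 0.00023) and Hes1 (1.12, adjusted p = 0.000309) were also higher. Zfp750 differed by 1.42 (SE 0.6, adjusted p = 0.0853) and was not called, although its 7.3, 7.65 and 7.54 in esophagus lay above the 6.03, 6.03 and 6.15 in bladder. This SE rests on the spread over all groups of the 3' arrays, among them small intestine with an SD of 2.1 for Zfp750. With only the arrays of the groups compared in the fit, 5 of the 9 were called. With other Trp63 probe sets averaged in, Trp63 differed by 1.07 (adjusted p = 0.0516), and with a pseudocount of 1 by 2.72 (adjusted p = 0.0596).

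Whole mouse stomach includes the forestomach, which is lined by stratified squamous epithelium. Against Get1 +/- bladder, stomach had 3 of the 9 genes called, all higher, against 9.82% of all genes: Ovol1 (1.62, adjusted p = 1.3e-05), Esrp1 (1.24, adjusted p = 0.0146) and Hes1 (1.02, adjusted p = 0.000865). Trp63 read 10.97, 11.02 and 10.77 in stomach and 9.51, 9.8 and 8.22 in bladder, and did not pass (1.75, SE 0.69, adjusted p = 0.0731) despite the gap between the groups. With only the arrays of the groups compared in the fit, 4 of the 9 were called. Hes1 fell under the 2-fold limit without bladder replicate 2 (0.96), bladder replicate 3 (0.91) or stomach replicate 1 (0.96). Both comparisons share the bladder arrays. Esophagus against stomach gave 0 of the 9 by limma, against 7.05% of all genes, and 2 at an unadjusted p under 0.05. Trp63 differed by 0.93 (SE 0.69, adjusted p = 0.434) and Zfp750 by 0.99 (SE 0.6, adjusted p = 0.319), with all esophagus arrays above all stomach arrays for both. For Trp63 the SD was 0.14 in each of these tissues and 2.47 in small intestine, which enters the same SE. With only the arrays of the groups compared in the fit, the count was again 0. Small intestine replicate 4 was left out only in comparisons with small intestine. These 3 comparisons and the one of skin with bladder were added after the split between the array sets was seen.

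In bladder, limma called 0 of the 9 genes at E16.5 against E14.5, and 0 passed an unadjusted p under 0.05; 0.341% of all genes were called. Trp63 read 8.6, 8.42 and 8.87 at E16.5 and 9.17 and 8.39 at E14.5 (−0.16, SE 0.77, adjusted p = 0.999). Ovol2 was listed at 0 on all 5 of these arrays. Zfp750 was at 5.12, 5.31 and 5.55 at E16.5 and 5 and 4.17 at E14.5, all E16.5 arrays being higher (0.75, SE 0.68, adjusted p = 0.874).

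Within the set of 9 arrays, skin was set against proximal small intestine at E18.5, and 6 of the 9 were called, all higher in skin, against 19.2% of all genes. Trp63 read 10.46, 10.51 and 11.07 in skin and 4.33, 4.27 and 8.58 in small intestine (log2 difference 4.96, SE 0.69, adjusted p = 8.04e-06). The 2 intestinal arrays other than replicate 4 sat near the level of 4 that stands for 0, as they did for Tfap2c and Zfp750. The size of the difference thus depends on the pseudocount for each of these genes, and no fold is given. Tfap2c read 8.01, 9.1 and 9.04 in skin and 4.33, 4 and 6.42 in small intestine (3.8, SE 0.42, adjusted p = 3.59e-07). Zfp750 read 8.68, 9.22 and 10.37 in skin and 4.52, 4.59 and 8.2 in small intestine (3.65, SE 0.6, adjusted p = 5.99e-05). The tissues did not overlap for these genes, and replicate 4 was the highest intestinal array for each. Sfn (11.44, 11.7 and 11.56 in skin, 7.32, 7.1 and 10.37 in small intestine; adjusted p = 5e-05), Bnc1 (2.68, adjusted p = 7.51e-07) and Esrp1 (1.62, adjusted p = 0.000984) were called too. Without replicate 4, the same 6 genes were called, with Trp63 at 6.38 (adjusted p = 9.43e-13), Zfp750 at 4.87 and Tfap2c at 4.55. On the mean of all probe sets of a gene, Trp63 was at 3.62 beside 3.65 for Zfp750, so Trp63 leads on its brightest probe set only. With only the arrays of these groups in the fit, Zfp750 (adjusted p = 0.0714), Sfn (adjusted p = 0.0534) and Esrp1 (adjusted p = 0.117) were not called. Lung markers on the skin arrays ranged as given above; their part in these differences was not tested.

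The other 3 genes were not called. Ovol1 read 10.36, 10.75 and 9.95 in skin and 10.09, 9.72 and 9.59 in small intestine, with overlap (0.55, adjusted p = 0.0482, below 2-fold). Hes1, a Notch effector active in intestinal progenitors, read 11.83, 11.53 and 12.44 in skin and 11.6, 11.38 and 11.83 in small intestine (0.33, adjusted p = 0.225). Ovol2 read 6.05, 6.87 and 6.3 in skin and 5.67, 6.02 and 6.53 in small intestine (0.33, adjusted p = 0.411). Replicate 4 was the highest intestinal array for Hes1 and Ovol2 and the lowest for Ovol1.

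The p63 target list gave 15 of 21 higher and 1 lower in E18.5 skin than in small intestine. The median was 2.66 beside 0.04 over all genes, of which 19.2% were called. The part of epithelial content in this and the following counts was not tested. Krt5 was at 13.21 ± 0.04 in skin and 7.04 ± 4.76 in small intestine (SD, n = 3 each), and Dsc3 (5.66) and the basal keratin Krt14 (5.6) were higher as well. In E14.5 skin against bladder, 14 of 21 were higher and 0 lower (median 1.7), against 14.1% of all genes called. Those higher were led by the plakophilin Pkp1 (5.29), Krt14 (5.28) and Dsc3 (4.81). In E18.5 esophagus against Get1 +/- bladder, 7 were higher and 2 lower (median 0.9), against 11.2% of all genes called. Pkp1 was higher (3.32), while Gata3, a factor of urothelium and skin, was lower (5.61 ± 0.2 against 8.26 ± 0.19). In stomach against Get1 +/- bladder 4 were higher and 1 lower, against 9.82% of all genes called. In esophagus against stomach 4 were higher, among them the laminin chain Lama3 (1.38), and 0 lower, against 7.05% of all genes called.

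Skin itself was compared between E18.5 and E16.5, with 2 of the 9 called, against 4.44% of all genes. Ovol1 fell to 10.36, 10.75 and 9.95 at E18.5, against 11.47, 11.62 and 11.63 at E16.5 (−1.22, SE 0.22, adjusted p = 0.000516). Bnc1 rose to 7.86, 8.41 and 7.95 at E18.5, against 6.89, 6.95 and 6.86 at E16.5 (1.18, SE 0.31, adjusted p = 0.0144). Neither pair of groups overlapped. Trp63 differed by 1.07 (SE 0.69, adjusted p = 0.394) and Tfap2c by 1.26 (SE 0.42, adjusted p = 0.0528), again without overlap between ages. Each SE rests on all groups of the 3' arrays, among them small intestine with an SD of 2.47 for Trp63 and 1.31 for Tfap2c. With only the arrays of the groups compared in the fit, 3 of the 9 were called. Lung markers summed to 196, 29300 and 25500 on the 3 E18.5 arrays and to 332, 9020 and 522 on the E16.5 arrays, and their part in these differences was not tested. Without E18.5 replicate 2, Bnc1 lost its call (1.01, adjusted p = 0.078), as it did without E16.5 replicate 3 (1.16, adjusted p = 0.0516). The Ovol1 difference was −0.96 (adjusted p = 0.0111) on the mean of both its probe sets.

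**Figure D3:**
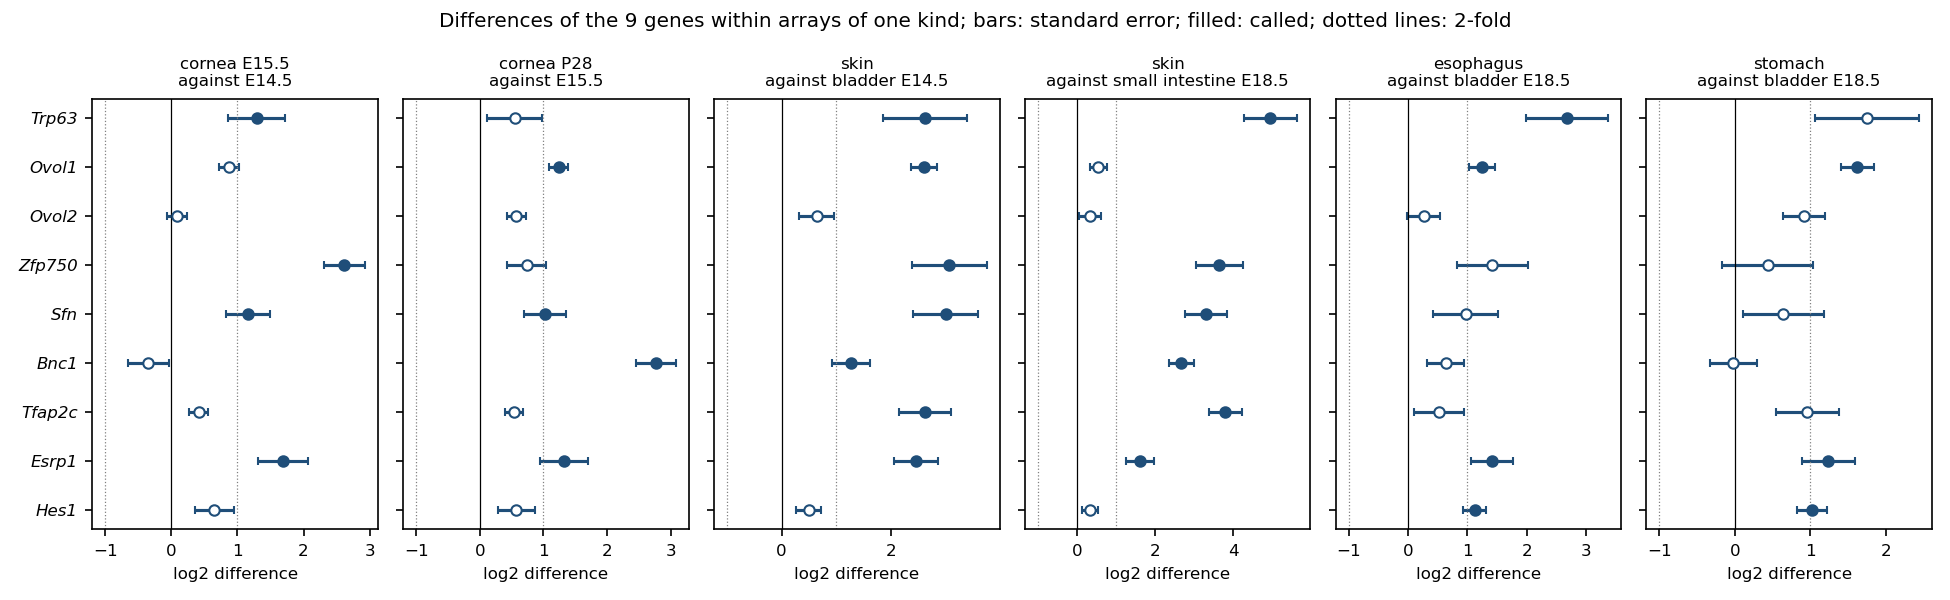
Log2 differences of the 9 genes in 6 comparisons that stay within one array set, first-named group minus second. Points are fitted differences, bars SE, and filled points those called. Zfp750 leads the first day in cornea (2.62) and Bnc1 the change from E15.5 to P28 (2.77). Trp63, on its brightest probe set, leads the skin to small intestine difference (4.96).

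Comparisons across the array sets follow. At E16.5 against E14.5, skin had 8 of the 9 called, against 43.2% of all genes. Of these, 5 were higher: Sfn (11.86, 11.85 and 11.88 against 8.38, 8.36 and 8.42; 3.47), Hes1 (12.17, 12.05 and 11.97 against 8.57, 8.63 and 8.72; 3.43), Ovol1 (2.7), Zfp750 (2.59) and Ovol2 (1.25). Tfap2c (7.18, 7.22 and 7.97 against 10.8, 10.87 and 11.22; −3.5), Trp63 (−1.79, adjusted p = 0.0282) and Esrp1 (−1.38) were lower, and Bnc1 was below 2-fold (−0.79). The E16.5 and E14.5 arrays belong to different sets, and age cannot be told apart from the set.

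The direction for Trp63 depended on the probe set. On the brightest, skin read 9.48, 9.72 and 9.63 at E16.5 and 11.28, 11.31 and 11.62 at E14.5. On one of the dimmer ones, skin read 8.27, 8.65 and 8.21 at E16.5 and 4, 4.06 and 4 at E14.5. On the other 2 the E16.5 arrays lay between 7.19 and 7.56 and the E14.5 arrays between 4.75 and 5.44. On the brightest probe set Trp63 was thus lower at E16.5 and on the other 3 higher, and the mean of all 4 gave 1.83 (adjusted p = 0.000518). On the brightest alone, the call was lost on leaving out E14.5 replicate 2 or 3 or any E16.5 array (adjusted p = 0.0509 to 0.0707). On the arrays of the larger set the other 3 probe sets stayed between 4 and 5.5, even in esophagus, where the brightest read 11.71 to 11.99. Ovol1 also had a second probe set that ran the other way, at 6.88, 6.8 and 6.91 at E16.5 and 7.51, 7.14 and 7.44 at E14.5.

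**Figure D4:**
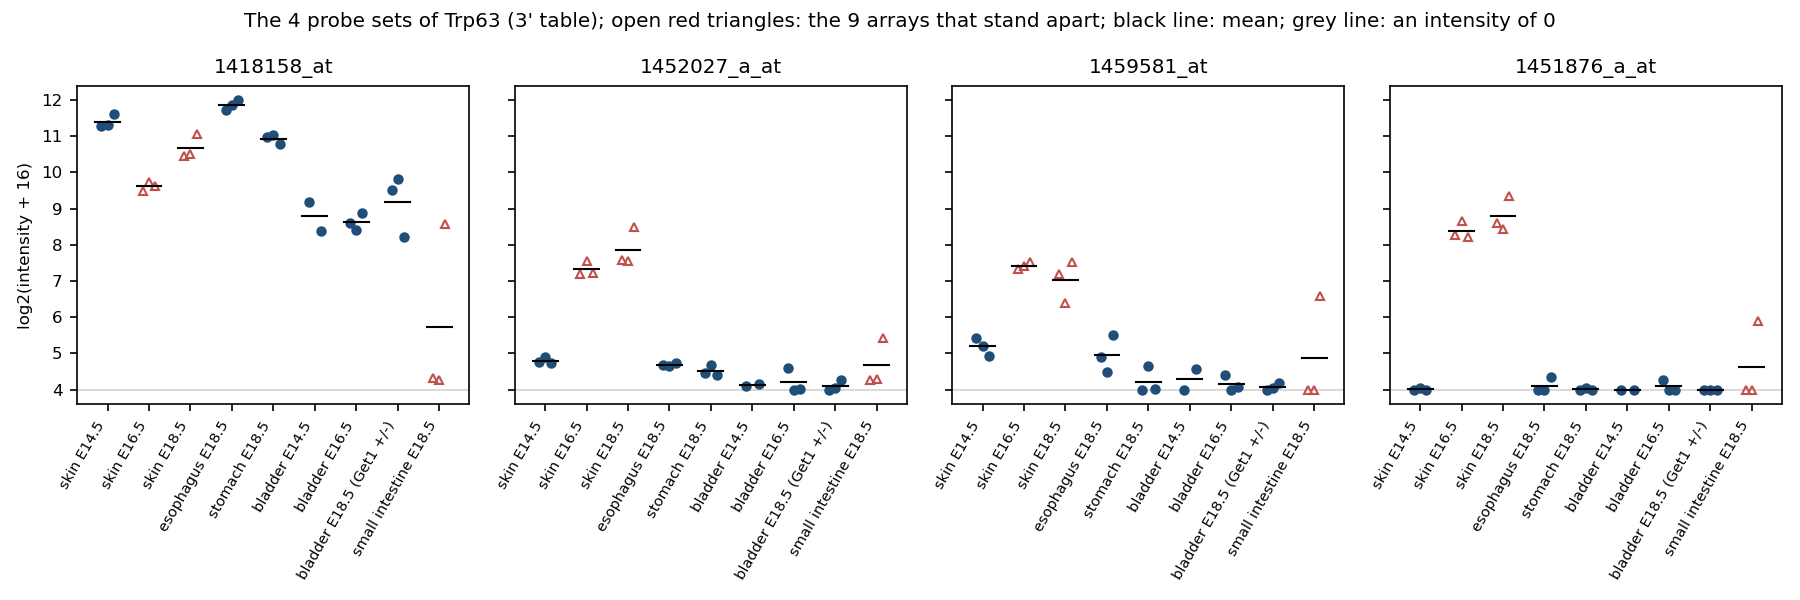
Levels of Trp63 on its 4 probe sets of the 3' table, log2(intensity + 16), 1 panel a probe set. Open triangles are the 9 arrays that stand apart, and outside them the 3 dimmer probe sets stay between 4 and 5.5 in every group, while the brightest reaches 11.99 in esophagus.

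The E14.5 to E16.5 change was also set between tissues, skin minus bladder, and 6 of the 9 differed, against 42.2% of all genes. Hes1 (3.81, SE 0.3), Sfn (3.29), Ovol1 (2.54) and Ovol2 (1.25) were higher in the skin change and Tfap2c (−3.45) and Esrp1 (−1.61) lower. Ovol2 was listed at 0 on all bladder arrays of both ages, so its value restates the skin change and says nothing of bladder. The skin arrays changed set between these ages and the bladder arrays did not.

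Against small intestine at E18.5, esophagus had 8 of the 9 called (48.8% of all genes), Get1 +/- bladder 8 (45.2%) and stomach 6 (45.6%). For bladder, tissue and genotype cannot be told apart. All 3 share the intestinal arrays and cross the sets. Trp63 was higher in esophagus (6.13), bladder (3.45) and stomach (5.2), and so were Tfap2c (4.62, 4.1 and 5.06) and Esrp1 (3.02, 1.61 and 2.84). Hes1 was lower in esophagus (−2.73), bladder (−3.85) and stomach (−2.83), and Ovol1 too (−1.79, −3.03 and −1.4). In skin against small intestine, which does not cross the sets, neither Hes1 nor Ovol1 was called. Sfn in bladder against small intestine (−1.31, adjusted p = 0.0369) was at −0.26 (adjusted p = 0.472) without small intestine replicate 4. On the mean of all probe sets, Trp63 was at 1.43 in esophagus, 0.37 (adjusted p = 0.437) in bladder and 0.95 (below 2-fold) in stomach, each against small intestine. Ovol1 was then at −0.9 in esophagus (below 2-fold) and −0.11 in stomach (adjusted p = 0.687). Skin against esophagus at E18.5 had 6 of the 9 called, against 48.9% of all genes: Sfn (3.65), Hes1 (3.06), Ovol1 (2.34), Zfp750 (1.93) and Ovol2 (1.84) were higher in skin and Esrp1 (−1.4) lower. Zfp750 lost its call without skin replicate 3 (1.45, adjusted p = 0.0555) and with a pseudocount of 1 (2.02, adjusted p = 0.0526). Skin replicates 2 and 3 both carried lung markers, and 6 of the 9 were called without replicate 2. The part of these markers was not tested.

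**Figure D5:**
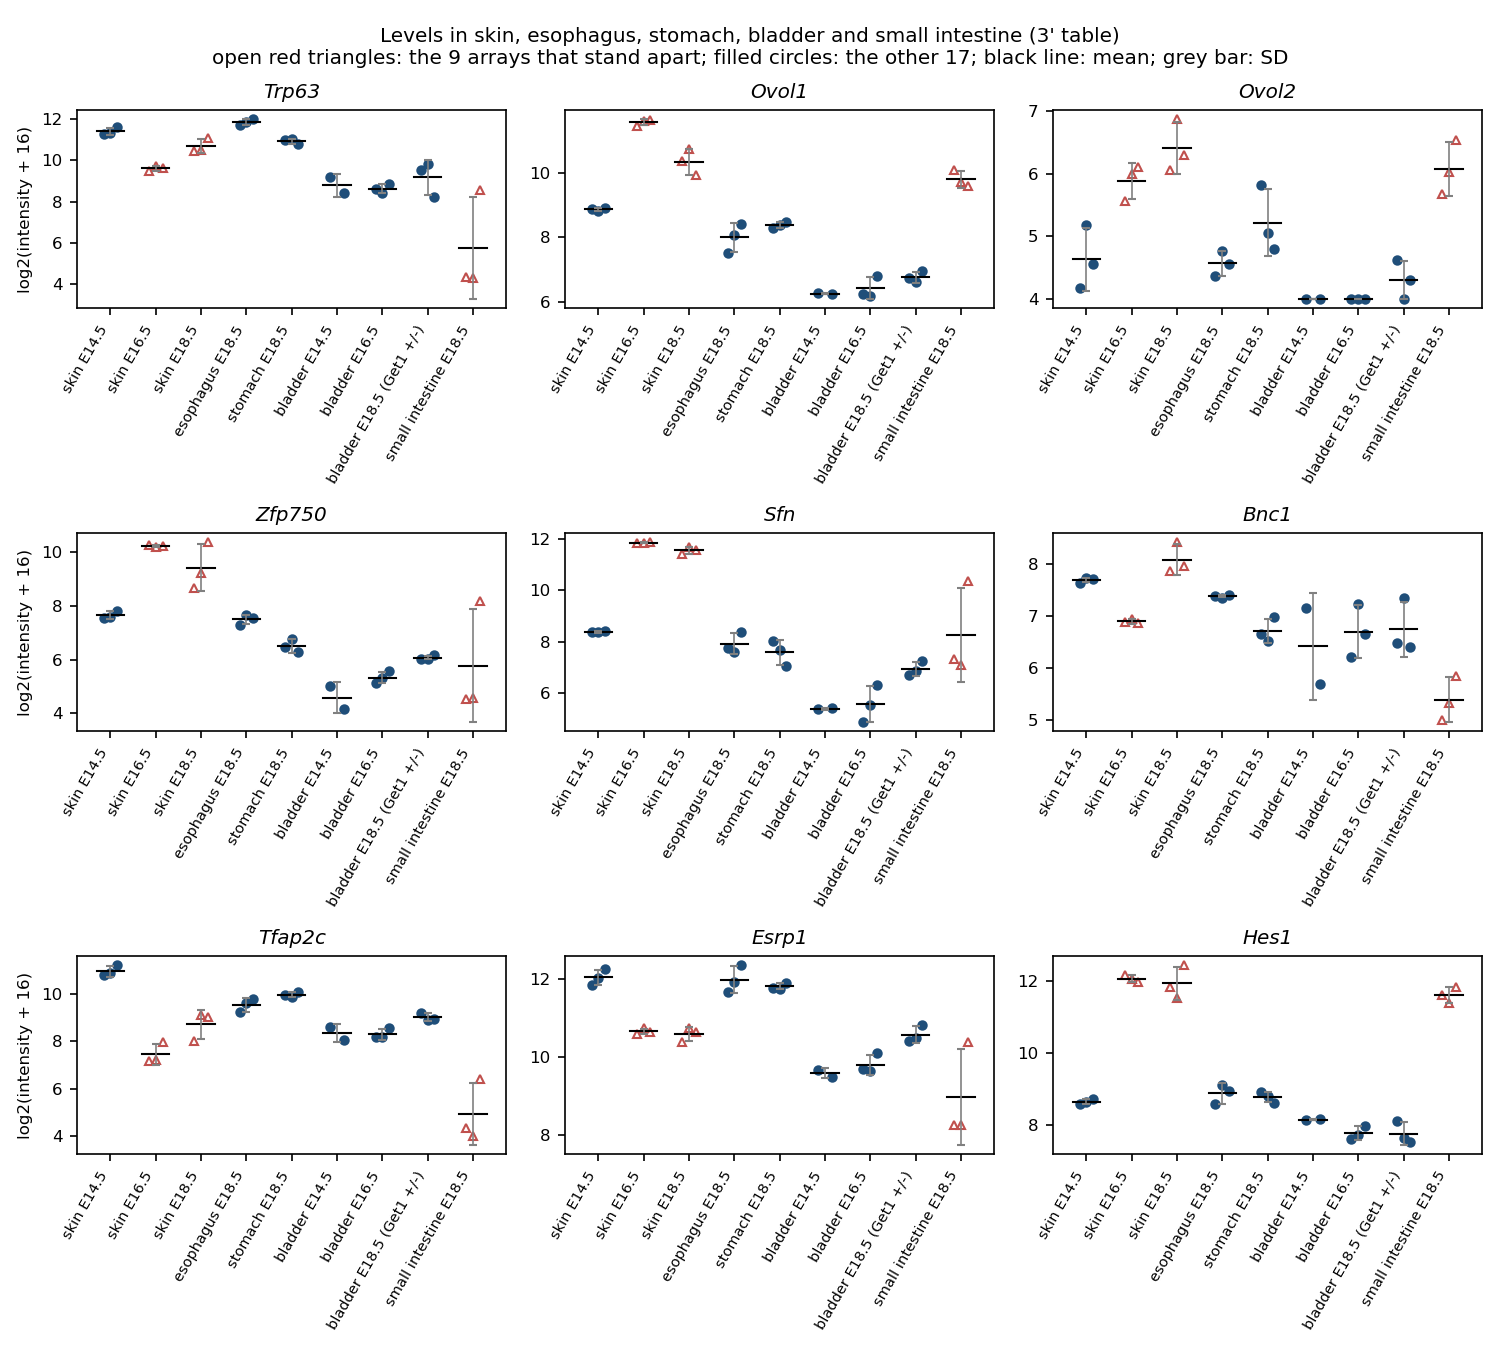
Levels of the 9 genes on the 26 arrays of the 3' table, log2(intensity + 16), with 1 panel a gene. Points are arrays, black lines means, grey bars SD, and open triangles the 9 arrays that stand apart, among which small intestine replicate 4 is the highest intestinal array for Trp63 (8.58), Zfp750 (8.2) and Sfn (10.37).

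Over all groups, each table had its own order. On Gene ST arrays, Trp63 was highest in P28 cornea (mean 11.41) and lowest in trachea (8.83), with overlap between every pair of neighbours in the order down to the lung-labelled arrays. On 3' arrays, Trp63 was highest in esophagus (11.85), above E14.5 skin (11.4) and stomach (10.92), and lowest in small intestine (5.72), with no overlap between the first 3. This order crosses the array sets and is that of the brightest probe set: on the other 3, E16.5 and E18.5 skin had the highest means, as on the dimmest with 8.38 and 8.79, against 4.12 in esophagus. Sfn had its highest mean in E16.5 skin (11.86) and its lowest in E14.5 bladder (5.39), and Tfap2c ran from E14.5 skin (10.96) to small intestine (4.92).

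The range of group means of Trp63, 6.13 on 3' arrays, was wider than that of 98.3% of genes, and Sfn, Tfap2c and Zfp750 exceeded 98.7%, 98.2% and 97.6%. Each of these ranges joined groups of different array sets, so tissue or age and array set cannot be told apart in it. The lowest means of Trp63 and Tfap2c, in small intestine, and of Zfp750, in E14.5 bladder, included arrays near the level of 4. The sizes of their ranges thus also depend on the pseudocount. The value for Trp63 is that of its brightest probe set only. On Gene ST arrays Zfp750, with 4.39, exceeded 97.4% of genes and Trp63, with 2.58, exceeded 88.3%. Ovol2 had the narrowest range of the 9 in both tables, 0.84 on Gene ST arrays and 2.41 on 3' arrays. On 3' arrays the Ovol2 range also joined different array sets, from E18.5 skin down to E14.5 bladder, where its mean was 4.

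Likeness to Trp63 was described by Pearson's r of group means, over points that share arrays, tissue and probe behaviour. In cornea over 7 ages, Zfp750 (0.986), Esrp1 (0.975) and Sfn (0.969) were nearest among the 8 and Bnc1 (0.629) farthest. Of 1437 genes that varied by at least 2 log2 units there, the proteoglycan Sdc1 (0.995), Zbtb7b (0.995), Adh6b (0.993), the grainyhead-like factor Grhl2 (0.993) and Rnh1 (0.992) came closest. The E14.5 means behind these cornea values include replicate 3, where Trp63 read 7.85, against 10.29 and 10.59 on the other E14.5 arrays. No r was computed without that array. Over all 9 Gene ST groups the 5 nearest were the desmoglein Dsg1b (0.993), Zfp36 (0.991), Lancl1 (0.98), Dbndd2 (0.977) and Rab21 (0.976), and Hes1 was at −0.251. Over all 9 groups of 3' arrays they were the planar polarity cadherin Celsr2 (0.98), the connexin Gja1 (0.949), the Wnt receptor Fzd6 (0.942), Ankrd35 (0.941) and Dennd2c (0.94). There Esrp1 (0.921) and Tfap2c (0.892) ran near Trp63, while Ovol1 (0.036), Ovol2 (−0.137) and Hes1 (−0.216) did not. Over the 6 groups left without the 9 arrays, all 8 lay between 0.749 (Ovol2) and 0.968 (Esrp1), Ovol1 and Hes1 at 0.923 each. The nearest genes over those 6 groups were Cd109 (0.994), Mall (0.993), Celsr2 (0.993), Spns2 (0.992) and Plbd1 (0.991).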

How the data were processed

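Tissue RNA was measured on Affymetrix Gene ST and 3' arrays. The deposited values are probe set intensities. The submitters' processing notes name Expression Console (version 1.1.1) and the PLIER algorithm (version 2.0), with no role or order. Each table was handled alone. A pseudocount of 16 was added to the deposited intensity, log2 taken and arrays quantile-normalized. Probe sets with 1 gene symbol in the platform annotation were kept (21789 of 35556 on Gene ST, 34958 of 45101 on 3' arrays), and the brightest stood for its gene.

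Differences were tested with limma 3.58.1 (lmFit and eBayes) in R 4.3.3, two-sided, over all arrays of a table with 1 shared spread per gene, adjusted by Benjamini-Hochberg over all genes; a call needs adjusted p under 0.05 and at least 2-fold. The code was tested on simulated data. The number of arrays limits the precision. The 9 genes, the gene lists and the markers were chosen with earlier results of these data known. All 9 genes were tested in every comparison, though not all are named in each. Named beside them are the 5 genes nearest to Trp63 by Pearson's r per table, and of the lists at most 3 called genes with the largest change per comparison. The nearest genes over the cornea ages and over the 6 groups were added after the data were seen. No pairing by array number was used in the main fit. The correlation of deviations between arrays of one number was over 0.1 for 1 of 12 pairs. Esophagus and stomach share numbers 1, 2 and 4, with correlations of 0.06, 0.09 and 0.13, and all other pairs were lower. Whether these arrays share animals is not known, and the replicate block fit of esophagus against stomach also called 0 of the 9. Alternatives were other normalization, pseudocount, filter, probe set rule, variance model, fold limit, arrays and groups in the fit. Figures were drawn with matplotlib 3.10.9 in Python 3.11.15.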

Additional observations from a re-analysis of the deposited data

Results flagged for a closer look

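Between E14.5 and E16.5, 6 of the 9 genes passed the test of the difference between the skin and the bladder change, given as the log2 change in skin minus that in bladder. The value was 3.81 for Hes1 (adjusted p = 1.64e-09), 3.29 for Sfn (adjusted p = 0.00179), 2.54 for Ovol1 (adjusted p = 1.21e-06), 1.25 for Ovol2 (adjusted p = 0.0177), −3.45 for Tfap2c (adjusted p = 9.54e-05) and −1.61 for Esrp1 (adjusted p = 0.0153), from limma over all genes. In bladder none of these 6 passed the test, and Ovol2 was listed at 0 on all 5 bladder arrays, so its value only restates the skin change. E16.5 skin arrays belong to the set of 9 that stands apart, the other 3 groups do not, and 42.2% of all genes were called in this test, so tissue and array set cannot be told apart here. With the second probe set of Ovol1 averaged in, its value was 0.95 (adjusted p = 0.0306). Ovol2 lost its call with a pseudocount of 1 (2.42, adjusted p = 0.0579), and Esrp1 on the values as deposited (−1.2, adjusted p = 0.0841).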

How the results depend on the processing

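Of the comparisons, 1 member change turned its direction and 5 counts of called genes moved by more than 1.5 times. Trp63 in E16.5 against E14.5 skin was −1.79 on the brightest probe set and 1.83 on the mean of all its probe sets; it also lost its call as deposited (−1.59, adjusted p = 0.0569), with a pseudocount of 1 (−1.81, adjusted p = 0.13) and with skin E14.5 replicates 1 and 2 averaged (−1.85, adjusted p = 0.0504). In cornea at E15.5 against E14.5 the count of 4 was 1 with only these groups in the fit and 1 in the replicate block fit, and 2 to 4 with 1 array left out. In cornea at P28 against E15.5 the count of 4 was 2 to 4 with 1 array left out. In trachea against the lung-labelled arrays the count of 0 was 1 without a fold limit. In skin at E18.5 against E16.5 the count of 2 was 1 on the mean of all probe sets and 1 to 3 with 1 array left out. In skin against small intestine the count of 6 was 3 with only these groups in the fit. The causes were not tested.

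Over all 79 called changes, 74 kept call and direction as deposited, 72 with a pseudocount of 1, 69 on the mean of probe sets, 69 with only the groups compared, and 79 with trend and robust variance. The replicate block kept 11 of 15 calls, the lost ones being Trp63 over the cornea ages (adjusted p = 0.0528) and Trp63, Sfn and Esrp1 at E15.5 against E14.5. Whether arrays of one number share an animal is not known. Low signal limits Ovol2, listed at 0 on all E14.5 and E16.5 bladder arrays, and the 3 dimmer probe sets of Trp63 outside E16.5 and E18.5 skin. In E16.5 and E18.5 skin the means of those 3 lay between 7.04 and 8.79.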
